A study of Mus musculus with 8 samples.

Results

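The genes described here are 10 components and receptors of autophagy: *Sqstm1*, *Nbr1*, *Optn*, *Map1lc3a*, *Map1lc3b*, *Gabarapl1*, *Becn1*, *Ulk1*, *Bnip3* and *Atg5*. They were taken by symbol from a table of 41709 genes, and all 10 had a row in it. Their mRNA levels come from RNA-seq of 8 whole TA (tibialis anterior) muscles. The mice were C57BL/6J males 3 months old, and the muscles were taken 7 days after electroporation with pools of siRNAs. Each of 4 mice, named here by the replicate number, received control non-targeting (NT) siRNAs in a leg whose label starts with R and siRNAs against *Uba1*, which encodes the ubiquitin-activating E1 enzyme UBA1, in a leg whose label starts with L. Leg and siRNA therefore cannot be told apart. The treatment tags write UBA2, UBA3 and UBA4 for *Uba1* replicates 2, 3 and 4, and the muscles were grouped by their descriptions, in which UBA1 stands for all 4.

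UBA1 charges ubiquitin for transfer to proteins, which sends them to the proteasome or, in aggregates and on damaged organelles, marks them for autophagy. In selective autophagy, receptors such as SQSTM1 (p62) bind ubiquitin with one domain and LC3 or GABARAP proteins on the growing membrane with another, so that the cargo is enclosed and delivered to lysosomes. LC3 and GABARAP proteins are themselves coupled to the membrane lipid by a ubiquitin-like pathway that uses ATG7, and not UBA1, as its E1-like enzyme. In skeletal muscle, autophagy removes proteins and mitochondria during fasting and disuse, and several of its genes are transcribed under FoxO and TFEB family factors. The comparison of *Uba1* with NT siRNAs asks whether the mRNAs of these genes differed when UBA1 was knocked down.

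None of the 10 mRNAs differed between *Uba1* and NT siRNAs beyond the spread between muscles. The differences ranged from a log2FC of -0.055 for *Becn1* to 0.13 for *Atg5*. By limma on log2(TPM + 1), 0 of 10 had an adjusted p under 0.05 and 0 of 10 an unadjusted p under 0.05. The smallest values belonged to *Bnip3* (unadjusted p = 0.131, limma adjusted p = 0.380). Among all 11530 genes tested, those at 1 TPM or more in at least 4 muscles, 0.0260% had an adjusted p under 0.05, 16.0% were higher and 1.98% were lower at an unadjusted p under 0.05. All 10 genes passed this filter on low values in both groups. The NT and *Uba1* muscles overlapped for all 10, whereas the groups did not overlap for 11.6% of all genes tested. In bulk muscle, fewer cells of a type and less RNA per cell cannot be told apart.

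*Uba1* itself was lower in all 4 mice, at 60.6 ± 2.11 TPM (SD, n = 4) with NT and 15.9 ± 6.83 TPM with *Uba1* siRNAs (log2FC -1.98, limma adjusted p = 0.0527, and 0.0278 with the mouse as a block). An exact two-sided permutation test gave p = 0.0286, the smallest that 4 against 4 muscles allow. With the mouse as a block, 0.494% of all genes tested passed the adjusted p and still 0 of the 10 did (smallest limma adjusted p = 0.230, *Atg5*). The 9 defining markers of skeletal muscle fibers were each above 1 TPM in every muscle and summed to 142408 to 156224 TPM with NT and 109548 to 157143 TPM with *Uba1* siRNAs. Transcripts of the mitochondrial genome took 39.9% to 50.3% of the TPM.

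The levels of the 10 mRNAs spanned 32.9-fold on the length-normalized TPM scale. *Map1lc3a* (mean level over the 8 muscles 342 TPM) and *Sqstm1* (293 TPM) were the most abundant, and their ranges overlapped, with *Map1lc3a* the higher in 4 of 8 muscles. *Bnip3* followed at 130 TPM and lay apart from its neighbours in the order. Of *Map1lc3b* (48.4 TPM), *Optn* (42.4 TPM) and *Gabarapl1* (40.6 TPM), each overlapped with the next, and so did *Ulk1* (31.0 TPM) and *Nbr1* (29.2 TPM). *Becn1* (16.2 TPM) and *Atg5* (10.4 TPM) were the least abundant, and *Becn1* exceeded *Atg5* in all 8 muscles.

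**Figure D1:**
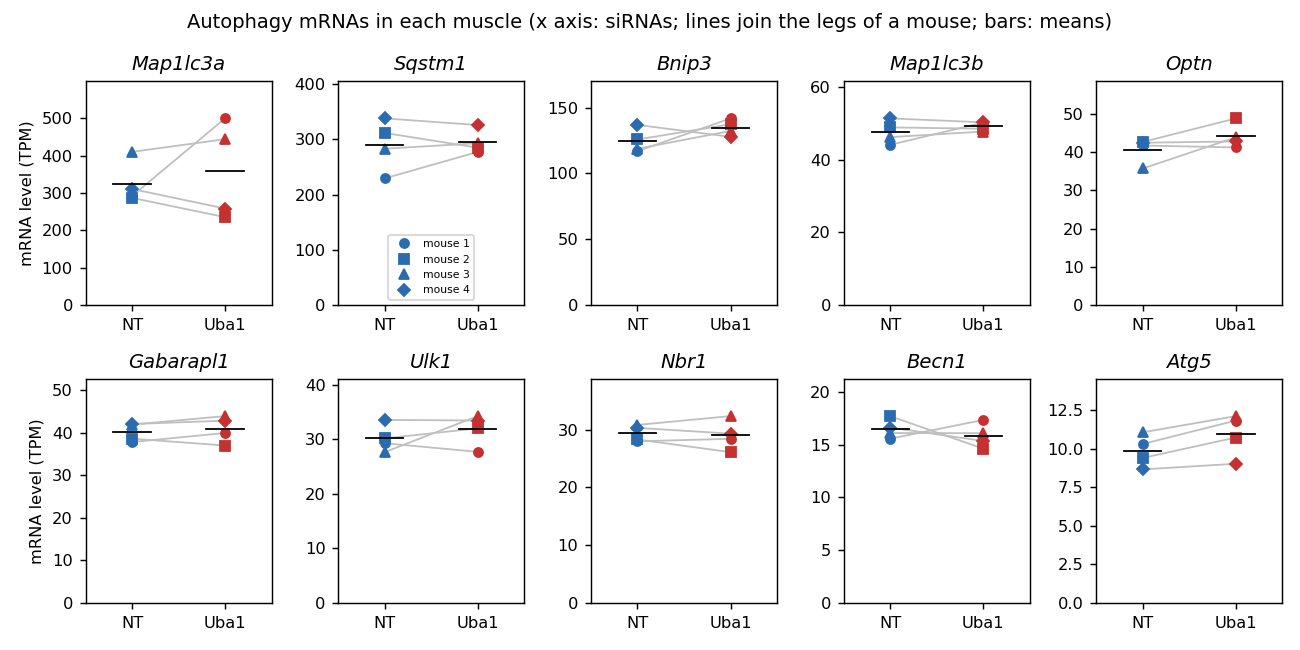
Level of each mRNA in TPM (y axes, from 0) with NT (blue) and *Uba1* siRNAs (red), in order of mean level. Marker shapes are mice, lines join the legs of a mouse and bars are means of 4 muscles. Both groups overlap in all 10 panels, *Map1lc3a* varies most (235.5 to 499.7 TPM), and *Atg5* is the one gene whose 4 lines all rise.

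Among the receptors that bind ubiquitin, *Sqstm1* encodes p62, which gathers ubiquitinated proteins into condensates and is degraded together with its cargo. The gene lies at chr11:50089572-50107684 on the minus strand (GRCm39). Its level was 229, 311, 283 and 338 TPM in the NT muscles of mice 1 to 4 and 277, 285, 293 and 326 TPM in the *Uba1* muscles. The *Uba1* muscles thus fell within the range of the NT muscles. The means were 290.4 ± 46.4 and 295 ± 21.4 TPM (SD, n = 4), with a log2FC of 0.035, a 95% interval from -0.23 to 0.30 and a limma adjusted p of 0.876. On the log2 scale this interval leaves room for a change of 0.855- to 1.23-fold. The sign of the difference rested on single muscles, since the log2FC was -0.073 without NT replicate 1 and -0.013 without *Uba1* replicate 4.

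*Nbr1* encodes a receptor of similar domain layout that acts with p62, and lies at chr11:101442962-101472781 on the plus strand. It measured 28.0, 28.3, 30.8 and 30.3 TPM with NT and 28.4, 26.1, 32.3 and 29.3 TPM with *Uba1* siRNAs. Here the NT muscles fell within the range of the *Uba1* muscles, and the log2FC was -0.017 (95% interval -0.19 to 0.15, limma adjusted p = 0.910). After median-ratio scaling it was -0.14, with an unadjusted p of 0.0628 (0.0259 with the mouse as a block, limma adjusted p = 0.256).

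*Optn* (chr2:5022703-5068945, minus strand) encodes optineurin, a receptor for damaged mitochondria and bacteria that is activated by the kinase TBK1. Its level was 41.7, 42.7, 35.7 and 42.5 TPM with NT and 41.2, 48.8, 43.9 and 42.8 TPM with *Uba1* siRNAs. NT replicate 3 was the lowest and *Uba1* replicate 2 the highest, and the remaining 6 muscles lay between 41.2 and 43.9 TPM. The log2FC was 0.12 (95% interval -0.063 to 0.30, limma adjusted p = 0.429), with higher levels in 3 of 4 mice.

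The mean shares of the receptors in their summed mRNA differed between the groups by less than their SDs. Of the summed TPM of *Sqstm1*, *Nbr1*, *Optn*, *Tax1bp1* and *Tollip*, *Sqstm1* took 73.3% ± 2.90 with NT and 73.0% ± 1.29 with *Uba1* siRNAs (SD, n = 4), *Optn* 10.4% ± 1.50 and 11.0% ± 1.07, and *Nbr1* 7.50% ± 0.848 and 7.19% ± 0.620. *Calcoco2*, another receptor of this class, was listed at 0 in all 8 muscles.

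*Map1lc3a* (chr2:155118217-155119998, plus strand) encodes LC3A, a protein that is conjugated to the autophagosome membrane and bound by the receptors. Its level was 292, 287, 410.2 and 311 TPM in the NT muscles of mice 1 to 4 and 499.7, 236, 444 and 259 TPM in the *Uba1* muscles. The *Uba1* group held both the highest and the lowest values of all 8 muscles, in mouse 1 and mouse 2. Its spread between muscles of a group was greater than that of 95.4% of the genes tested. The log2FC of 0.084 therefore had an interval from -0.47 to 0.64 (limma adjusted p = 0.858), which leaves room for a change of 0.724- to 1.55-fold. Without *Uba1* replicate 1 it was -0.099, and without *Uba1* replicate 3 it was -0.042.

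The muscles in which *Map1lc3a* was high also stood out in some other measures, though not in all. The 3 muscles with the highest *Map1lc3a* (*Uba1* replicates 1 and 3 and NT replicate 3) had the smallest shares of mitochondrial transcripts (40.2%, 39.9% and 42.1% of the TPM). The *Uba1* muscles of mice 2 and 4, with the lowest *Map1lc3a*, had the greatest (50.3% and 46.5%). With the mitochondrial genes left out of the TPM, *Map1lc3a* still ranged from 474 to 836 TPM. The summed level of the 8 leukocyte markers, of which 5 were above 1 TPM in every muscle and none was at 0 in all, was 241, 350.3 and 329 TPM in the same 3 high muscles and 100.4 to 193 TPM in the other 5. Over all muscles it ranged from 103 to 329 TPM with NT and from 100.4 to 350.3 TPM with *Uba1* siRNAs. The 5 fibroblast markers, each above 1 TPM in every muscle, summed to 962, 1130 and 913 TPM in the 3 high muscles and to 429 to 725 TPM in the other 5. Their range was 429 to 913 TPM with NT and 566 to 1130 TPM with *Uba1* siRNAs. The *Uba1* muscles of mice 2 and 4, lowest in *Map1lc3a*, also had the lowest sums of fiber markers (109548 and 129042 TPM), adipocyte markers (1.34 and 2.61 TPM, against 8.11 to 14.8 TPM in the other 6) and nerve and glia markers (32.0 and 28.0 TPM, against 35.9 to 68.3 TPM). The fiber sum hides that *Myh1* was highest of all 8 muscles in the *Uba1* muscle of mouse 2 (6010 TPM), where the other fiber markers were lowest. Of the 4 adipocyte markers 0, and of the 4 nerve and glia markers 3, were above 1 TPM in every muscle, and *Chat* was listed at 0 in all. Other sums did not set the 3 high muscles apart from the other 5. They were 105.6, 119.9 and 105.6 TPM against 89.7 to 125.3 TPM for endothelial markers. Red blood cell markers summed to 3677, 2901 and 6998 TPM against 1841 to 6266 TPM. For satellite cell markers the sums were 4.28, 4.13 and 4.51 TPM against 2.87 to 4.32 TPM. The part of these measures in the level of *Map1lc3a* was not tested.

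**Figure D2:**
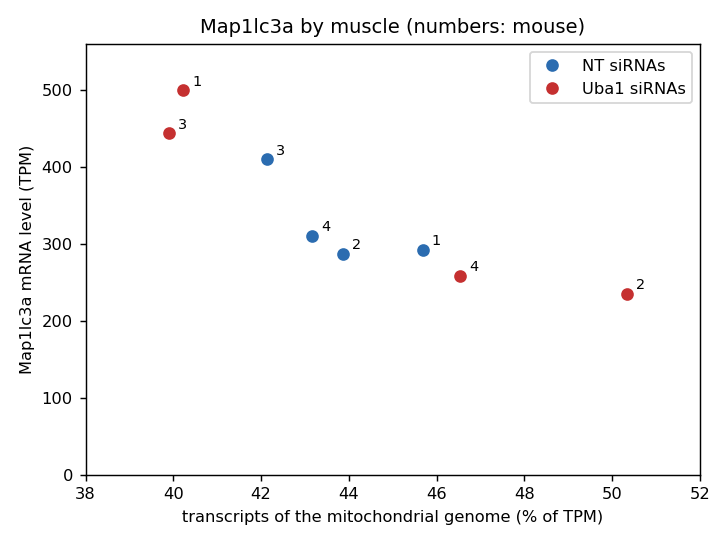
Level of *Map1lc3a* in TPM (y axis, from 0) against the share of the TPM taken by transcripts of the mitochondrial genome (x axis, %), for 8 muscles with NT (blue) or *Uba1* siRNAs (red); numbers are mice. The 3 muscles with the highest *Map1lc3a* (410.2 to 499.7 TPM) have the 3 smallest mitochondrial shares, and the *Uba1* muscles lie at both ends of the plot.

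*Map1lc3b* (chr8:122317100-122325499, plus strand), the gene of LC3B, whose lipid-bound form is the usual marker of autophagosomes, was steadier. It measured 44.0, 48.8, 46.2 and 51.3 TPM with NT and 50.2, 48.5, 47.7 and 50.2 TPM with *Uba1* siRNAs. The *Uba1* muscles lay within the NT range, and the spread was greater than that of only 8.77% of the genes tested. Its log2FC was 0.048 with a 95% interval from -0.096 to 0.19 (limma adjusted p = 0.687), the narrowest interval of the 10 genes.

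*Gabarapl1* (chr6:129509725-129520544, plus strand), a member of the GABARAP subfamily that acts late in autophagosome formation, measured 37.9, 38.7, 42.0 and 42.1 TPM with NT and 40.0, 37.0, 44.0 and 42.9 TPM with *Uba1* siRNAs. The order of the mice was similar in both legs, with mice 3 and 4 above mice 1 and 2. The log2FC was 0.027 (95% interval -0.14 to 0.19, limma adjusted p = 0.845).

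Summed over *Map1lc3a*, *Map1lc3b*, *Gabarap*, *Gabarapl1* and *Gabarapl2*, the LC3 and GABARAP mRNAs came to 578 ± 64.0 TPM with NT and 623 ± 149 TPM with *Uba1* siRNAs. *Map1lc3a* took 56.0% ± 3.80 and 56.4% ± 7.72 of this sum, *Map1lc3b* 8.30% ± 0.982 and 8.24% ± 1.97, and *Gabarapl1* 6.98% ± 0.508 and 6.83% ± 1.48. The mean shares thus differed by less than their SDs.

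Of the genes that start an autophagosome, *Ulk1* (chr5:110931496-110957995, minus strand) encodes the kinase that is turned on by AMPK and held off by mTORC1. It measured 29.3, 30.2, 27.7 and 33.6 TPM with NT and 27.7, 32.0, 34.3 and 33.5 TPM with *Uba1* siRNAs. Only mouse 2 and mouse 3 had the higher value in the *Uba1* leg, and the log2FC was 0.075 (95% interval -0.12 to 0.27, limma adjusted p = 0.638).

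*Becn1* (chr11:101176769-101193122, minus strand) encodes Beclin 1, a subunit of the lipid kinase complex that prepares the membrane. It had the most negative difference of the 10. Its level was 15.6, 17.7, 16.1 and 16.6 TPM with NT and 17.3, 14.6, 16.1 and 15.3 TPM with *Uba1* siRNAs. The *Uba1* leg had the lower value in 3 of 4 mice, in mouse 3 by a log2 difference of only -0.0010. The log2FC was -0.055 (95% interval -0.22 to 0.11, limma adjusted p = 0.676). After median-ratio scaling it was -0.17 with an unadjusted p of 0.0220 and a limma adjusted p of 0.359.

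*Atg5* (chr10:44142076-44240308, plus strand) encodes a protein that is joined to ATG12 and helps couple LC3 to lipid. It was the one gene of the 10 that was higher in the *Uba1* leg of all 4 mice, as were 32.2% of all genes tested, and relative to the median of all genes in each mouse its log2 difference was -0.0059, 0.14, -0.032 and 0.0095. Its level was 10.3, 9.42, 11.1 and 8.67 TPM with NT and 11.8, 10.7, 12.1 and 9.04 TPM with *Uba1* siRNAs. Mouse 3 was highest and mouse 4 lowest in both legs, and the groups overlapped. The log2FC was 0.13 (95% interval -0.10 to 0.37, limma adjusted p = 0.497; exact two-sided permutation p = 0.286). With the mouse as a block the unadjusted p was 0.0707.

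*Bnip3* (chr7:138490690-138511253, minus strand) encodes a mitochondrial receptor that binds LC3 without ubiquitin and is induced by hypoxia and FoxO3. It measured 117, 126, 119 and 137 TPM with NT and 142, 137, 132 and 128 TPM with *Uba1* siRNAs. The value was higher in the *Uba1* leg of mice 1, 2 and 3 and lower in that of mouse 4. The log2FC was 0.11 (95% interval -0.041 to 0.27, limma adjusted p = 0.380; exact two-sided permutation p = 0.114). Without NT replicate 4, the highest of its group, the log2FC was 0.16 with an unadjusted p of 0.0413 and a limma adjusted p of 0.263. In that setting 17.7% of all genes had an unadjusted p under 0.05. After median-ratio scaling of all 8 muscles the log2FC of *Bnip3* was -0.0065 (limma unadjusted p = 0.936).

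The small positive differences of these genes have to be read against the whole table, in which 81.8% of the genes tested had a log2FC above 0 and the median was 0.11. The median of the 10 was 0.061, and 3 of them (*Optn*, *Bnip3* and *Atg5*) were above the median of all genes. As deposited, 8 of the 10 had a log2FC above 0, but after median-ratio scaling, which moves the median of all genes to 0.0016, only *Atg5* had, and after quantile normalization 5 had. Relative to the median of all genes, the 10 ranged from -0.16 for *Becn1* to 0.026 for *Atg5*. Between the legs of mice 1 to 4, the median log2 difference of all genes was 0.19, 0.030, 0.15 and 0.044, and 83.3%, 56.1%, 81.8% and 61.8% of all genes were higher in the *Uba1* leg. The median of the 10 was 0.16, -0.035, 0.091 and -0.038, and 8, 4, 9 and 3 of them were higher. Above the median of all genes in the same mouse were 3, 4, 3 and 1 of the 10.

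**Figure D3:**
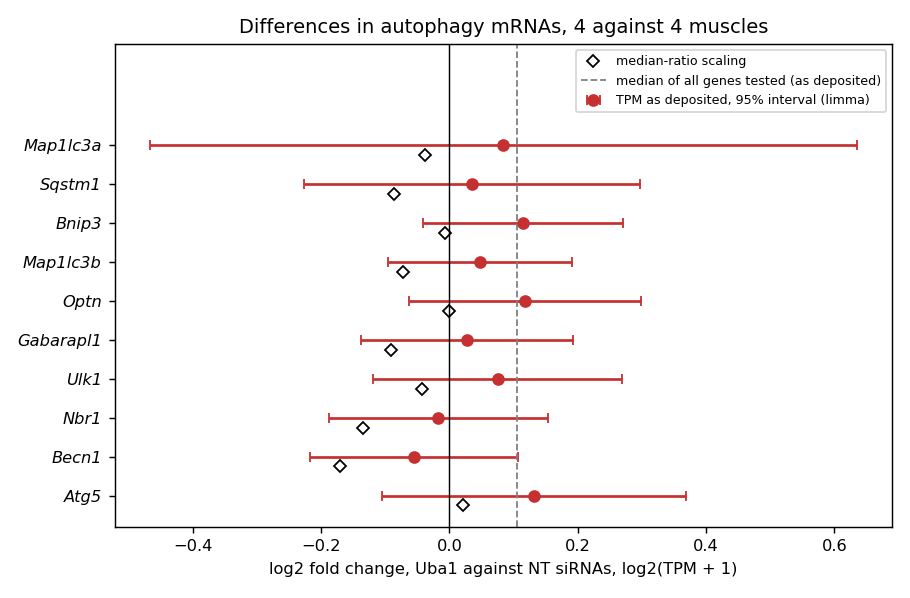
The log2FC of *Uba1* against NT siRNAs on the log2(TPM + 1) scale (x axis) with its 95% interval from limma, n = 4 muscles a group (red), and the log2FC after median-ratio scaling (open diamonds). All 10 intervals include 0; the diamonds lie left of the red points, and only that of *Atg5* is above 0. The dashed line is the median of all genes tested as deposited, 0.11.

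Ratios between the genes within a muscle do not move with the scaling of its TPM. The ratios of *Map1lc3a* to *Map1lc3b*, *Gabarapl1* to *Map1lc3b*, *Sqstm1* to *Nbr1*, *Optn* to *Sqstm1*, *Bnip3* to *Ulk1* and *Becn1* to *Atg5* were compared, and none of the 6 differed by an exact two-sided permutation test (adjusted p = 0.971 for each). The ratio of *Becn1* to *Atg5* was 1.51, 1.88, 1.45 and 1.92 in the NT muscles of mice 1 to 4 and 1.46, 1.36, 1.33 and 1.70 in the *Uba1* muscles. It was lower in the *Uba1* leg of all 4 mice while the groups overlapped, with a log2 difference of -0.20 (exact permutation p = 0.200 before adjustment). *Map1lc3a* exceeded *Map1lc3b* 6.86-fold ± 1.39 with NT and 7.32-fold ± 2.69 with *Uba1* siRNAs (SD, n = 4).

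The other genes of the pathway were taken from 10 lists by role that hold 88 genes beside these 10, of which 87 passed the filter. Of the 87, 0 had an adjusted p under 0.05 (smallest limma adjusted p = 0.129). At an unadjusted p under 0.05, 14 were higher (16.1%, against 16.0% of all genes tested) and 1 was lower (1.15%, against 1.98%), so that 17.2% differed in either direction, against 18.0% of all genes. The groups did not overlap for 11 of 87 (12.6%, against 11.6%). The median log2FC of the 87 was 0.094. These shares were near those of all genes. After median-ratio scaling, 6 of 87 (6.90%), 1 higher and 5 lower, had an unadjusted p under 0.05, against 10.6% of all genes.

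By role, the 14 higher genes were 2 of 4 of the initiation complex, 3 of 7 of the phosphatidylinositol 3-kinase complex, 1 of 10 of membrane expansion, 1 of 9 of the conjugation machinery, 2 of 12 mitophagy and organelle receptors, 2 of 14 fusion genes and 3 of 7 transcription factors. None of the 2 LC3 and GABARAP genes was among them. Nor was any of the 4 tested genes in the list of ubiquitin-binding receptors, which includes the kinase gene *Tbk1*. The lower gene was 1 of 18 lysosomal genes. These small counts stand beside 16.0% higher among all genes tested, and after median-ratio scaling 0 genes of the initiation complex, of the phosphatidylinositol 3-kinase complex and of the transcription factors were higher at an unadjusted p under 0.05.

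*Stx17*, the syntaxin that fuses autophagosomes with lysosomes, had the smallest p. It measured 12.8, 13.1, 12.1 and 13.5 TPM with NT and 15.3, 15.8, 16.8 and 15.9 TPM with *Uba1* siRNAs (log2FC 0.29, SE 0.061, limma adjusted p = 0.129). All 4 *Uba1* muscles were above all 4 NT muscles, and it was the one list gene that stayed higher at an unadjusted p under 0.05 after median-ratio scaling (log2FC 0.17, unadjusted p = 0.0387). *Vps11*, a subunit of the tethering complex for this fusion, measured 11.0 ± 0.337 TPM with NT and 12.8 ± 0.762 TPM with *Uba1* siRNAs (SD, n = 4; limma adjusted p = 0.181).

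*Tfeb*, a transcription factor of lysosomal and autophagy genes, measured 20.6, 22.4, 20.5 and 21.8 TPM with NT and 24.3, 26.9, 24.8 and 25.9 TPM with *Uba1* siRNAs (log2FC 0.25, SE 0.061, limma adjusted p = 0.147). The groups did not overlap. After median-ratio scaling the log2FC was 0.13 with an unadjusted p of 0.174. *Foxo3*, the FoxO factor best known for activating autophagy genes in muscle, was at 6.59 ± 0.720 and 8.22 ± 1.22 TPM (SD, n = 4; log2FC 0.28, limma adjusted p = 0.237). It was higher in the *Uba1* leg of all 4 mice, as were 32.2% of all genes tested, although the groups overlapped. After median-ratio scaling the log2FC of *Foxo3* was 0.17 (limma unadjusted p = 0.133). *Tfe3*, of the TFEB family and named after its values were seen, was at 3.60 ± 0.0702 and 3.25 ± 0.407 TPM (SD, n = 4; log2FC -0.12, limma adjusted p = 0.423). After median-ratio scaling its log2FC was -0.22 (unadjusted p = 0.0125, limma adjusted p = 0.302).

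Further genes at an unadjusted p under 0.05 had log2FC between 0.14 and 0.26, and each had a limma adjusted p of 0.187 or more. They include *Ulk2*, the paralog of *Ulk1* (37.6 ± 4.83 and 44.9 ± 1.62 TPM with NT and *Uba1* siRNAs), and *Ncoa4*, the receptor of ferritin (9.91 ± 0.439 and 11.6 ± 0.702 TPM). Others were the partners of Beclin 1 *Uvrag* (2.91 ± 0.119 and 3.62 ± 0.373 TPM), *Atg14* (3.75 ± 0.309 and 4.49 ± 0.233 TPM) and *Nrbf2* (19.4 ± 1.42 and 22.9 ± 2.58 TPM). *Wdr45*, which binds phosphoinositides on the growing membrane (11.7 ± 0.544 and 13.2 ± 0.586 TPM), and *Atg4d*, a protease that processes LC3 and GABARAP proteins (9.94 ± 0.326 and 11.1 ± 0.202 TPM), belonged to the same group. After median-ratio scaling none of these 7 had an unadjusted p under 0.05.

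*Gla*, the lysosomal alpha-galactosidase, was the lower gene, at 2.90 ± 0.246 TPM with NT and 2.23 ± 0.384 TPM with *Uba1* siRNAs (SD, n = 4; log2FC -0.28, limma adjusted p = 0.213). The value was lower in the *Uba1* leg of all 4 mice, although the groups overlapped. The log2FC was -0.37 after median-ratio scaling (unadjusted p = 0.00125, limma adjusted p = 0.138). Among the most abundant genes of their lists, *Psap*, the precursor of the saposins, was at 677 ± 35.4 and 691 ± 76.0 TPM (limma adjusted p = 0.890). *Pink1*, the kinase that marks damaged mitochondria, was at 466 ± 73.5 and 522 ± 86.4 TPM (limma adjusted p = 0.544). It was higher in the *Uba1* leg of all 4 mice, as were 32.2% of all genes tested. With the mouse as a block, *Pink1* had an unadjusted p of 0.0411 and a limma adjusted p of 0.183, and its log2FC of 0.16 was 0.041 after median-ratio scaling without the block (unadjusted p = 0.830).

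**Figure D4:**
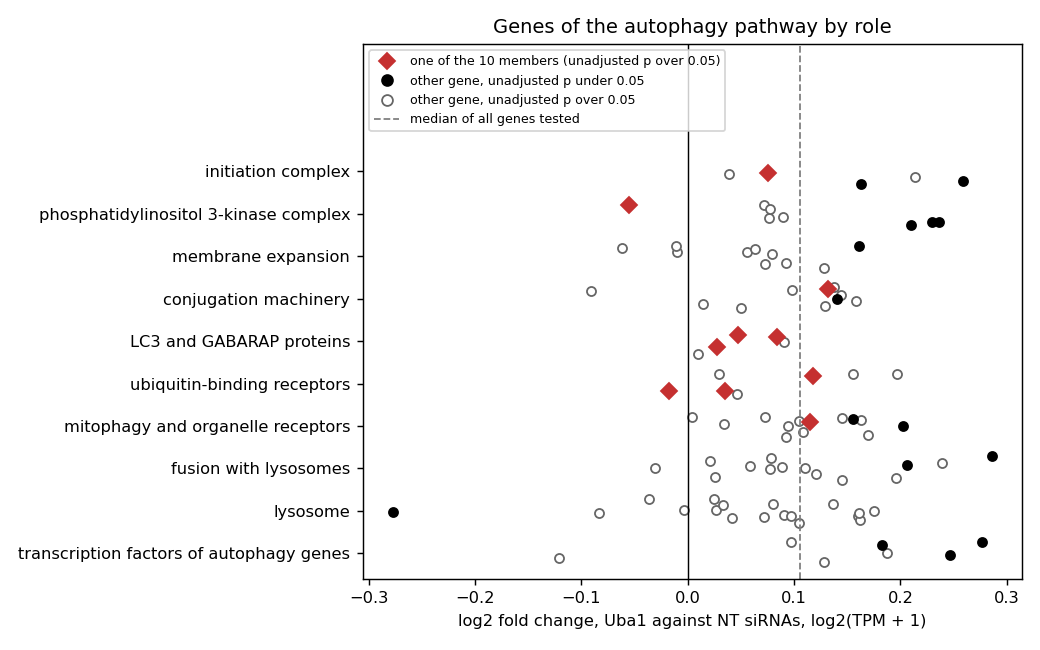
The log2FC of *Uba1* against NT siRNAs (x axis, log2(TPM + 1) scale, n = 4 muscles a group) of 97 autophagy genes, grouped by role (y axis; height within a row has no meaning). Red diamonds are the 10 genes of the report, filled points are genes at an unadjusted p under 0.05 and the dashed line is the median of all genes tested, 0.11. Of the 87 other genes, 77 (88.5%, against 81.8% of all genes tested) lie above 0 as deposited. Filled points above 0 are 14 of the 87 (16.1%, against 16.0% of all genes). Below 0 lies 1 filled point (*Gla*).

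The promoters of the 10 genes were examined for the letters that transcription factors of autophagy genes recognize. A 300-base promoter (250 bases before to 50 after the start) was found in RefSeq (GRCm38.p6) for 8 of the 10, with 9 promoters in all. *Map1lc3a* and *Becn1* were without an entry. The E-box CACGTG, the palindrome read by TFEB and related factors, stood in 2 of 9 and in 7.15% of all 32851 promoters. The FoxO motif GTAAACA was found, on either strand, in 0 of 9 and 3.65% of all, and the AP-1 motif TGACTCA in 0 of 9 and 5.20% of all. These matches are a description of the sequence in these windows, with no measure of binding. Both promoters with an E-box (in capitals), those of *Bnip3* and *Atg5*, are shown. A link between the motif and the mRNA levels was not tested. The coordinates are of GRCm38 and cannot be set beside the GRCm39 positions above. *Bnip3* is shown from chr7:138909457-138909756 on the minus strand, with the E-box starting at position -108 from the start site, and *Atg5* from chr10:44268089-44268388 on the plus strand, with the E-box at position -14.
Bnip3: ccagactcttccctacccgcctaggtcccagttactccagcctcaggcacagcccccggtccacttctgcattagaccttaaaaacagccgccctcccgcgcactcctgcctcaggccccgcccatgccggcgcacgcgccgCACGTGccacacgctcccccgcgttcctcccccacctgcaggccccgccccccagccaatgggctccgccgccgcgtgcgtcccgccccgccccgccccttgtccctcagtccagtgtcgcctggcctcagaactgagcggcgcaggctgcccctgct
Atg5: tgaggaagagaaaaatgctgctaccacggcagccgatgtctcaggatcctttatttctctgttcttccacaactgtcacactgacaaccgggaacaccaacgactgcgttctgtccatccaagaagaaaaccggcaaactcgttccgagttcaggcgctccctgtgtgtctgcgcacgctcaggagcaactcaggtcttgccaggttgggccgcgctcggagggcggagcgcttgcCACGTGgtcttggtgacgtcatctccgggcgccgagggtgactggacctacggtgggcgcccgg

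The library kit does not mark strand, so reads of a gene and of an overlapping antisense gene cannot be told apart. In the GENCODE M39 annotation, exons of 6 of the 10 genes overlap a gene on the opposite strand. The longest overlap was that of *Becn1* with *Cntd1* (3227 bases), which was at 0.208 TPM at most. *Sqstm1* shares 1412 bases with *Mrnip* (at most 2.56 TPM) and 141 bases with *Mgat4b* (at most 28.3 TPM). *Map1lc3b* shares 68 bases with *Zcchc14* (at most 10.6 TPM). The partners of *Optn*, *Gabarapl1* and *Bnip3* were noncoding genes at no more than 0.615 TPM.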

How the data were processed

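Total RNA of 8 TA muscles was sequenced. The authors used CLC Genomics Workbench to align the reads (GRCm39) and deposited TPM per gene, which sum to the same total in each muscle and keep no read depth. The annotation and the handling of reads that match several genes are not given in the sources used here. Every column was assigned to a muscle by its label.

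Genes that reached 1 TPM in 4 or more of the 8 muscles were tested with limma 3.58.1 (lmFit, eBayes with trend; R 4.3.3) on log2(TPM + 1), unpaired, with Benjamini-Hochberg adjustment over all 11530 genes. The pseudocount makes the log2FC of low genes too small. The script was tested on simulated data. Single values and 6 ratios were compared with exact two-sided permutation tests (scipy 1.17.1). Plots were drawn with matplotlib 3.10.9.

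Equal replicate numbers mark the legs of a mouse. Their deviations from the group means correlated at -0.000368, 0.201, 0.584 and 0.537 in mice 1 to 4, and a fit with the mouse as a block was an alternative. Other alternatives were a pseudocount of 0.1, no filter, a mean of 5 TPM, median-ratio scaling with or without the block, quantile normalization, TPM without mitochondrial genes, the Kruskal-Wallis test and leaving out each muscle.

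Named beside the 10 genes were *Uba1*, up to 12 list genes with the smallest unadjusted p under 0.05, and the most abundant gene of a list. *Cntd1*, *Mrnip*, *Mgat4b*, *Zcchc14*, *Calcoco2*, *Tbk1*, *Tfe3*, *Chat*, *Myh1* and the genes that complete the sums were named outside this rule. The genes and lists were chosen with earlier results of these data known.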

Additional observations from a re-analysis of the deposited data

Results flagged for a closer look

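The level of *Optn* in NT replicate 3, 35.7 TPM, lay far from those of the other 3 NT muscles. Of 32 groups of 4 muscles examined in this way, this was the 1 with a value that stood apart, where chance marks about 1 in 20 groups. Without that muscle *Optn* had a log2FC of 0.059.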

How the results depend on the processing

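In 160 recomputations of the log2FC of the 10 genes, 0 had an adjusted p under 0.05 (smallest limma adjusted p = 0.230) and 25 changed sign. The 25 are no rate of stability. With no filter, a mean of 5 TPM or the block alone the log2FC cannot change, and changes of sign with median-ratio scaling are counted again with the block. With median-ratio scaling, and likewise with the replicate block added to it, log2FC turned to -0.086 for *Sqstm1*, -0.00083 for *Optn*, -0.037 for *Map1lc3a*, -0.072 for *Map1lc3b*, -0.092 for *Gabarapl1*, -0.043 for *Ulk1* and -0.0065 for *Bnip3*, and the median of the 10 to -0.057. Quantile normalization gave -0.0018 for *Sqstm1*, -0.031 for *Map1lc3b* and -0.050 for *Gabarapl1*, and TPM without mitochondrial genes 0.00059 for *Nbr1*. The cause was not tested. Leaving out each muscle gave -0.073 to 0.11 for *Sqstm1*, -0.069 to 0.031 for *Nbr1* (above 0 without NT replicate 3 or *Uba1* replicate 2), -0.099 to 0.26 for *Map1lc3a* and -0.0068 to 0.074 for *Gabarapl1* (below 0 without *Uba1* replicate 3). With no change of sign, it gave 0.077 (without NT replicate 4) to 0.21 (without *Uba1* replicate 4) for *Atg5*, 0.012 (NT replicate 1) to 0.084 (NT replicate 4) for *Map1lc3b*, 0.036 (NT replicate 3) to 0.14 (*Uba1* replicate 1) for *Ulk1*, -0.097 (*Uba1* replicate 1) to -0.020 (*Uba1* replicate 2) for *Becn1*, 0.059 (NT replicate 3) to 0.15 (*Uba1* replicate 1) for *Optn*, 0.085 (NT replicate 1) to 0.16 (NT replicate 4) for *Bnip3* and 0.025 (NT replicate 1) to 0.081 (NT replicate 4) for the median of the 10.

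The number of the 10 at an unadjusted p under 0.05 was 0 as reported, 1 with median-ratio scaling and 1 with quantile normalization (*Becn1*), 2 with the replicate block and median-ratio scaling (*Becn1* and *Nbr1*, both lower, where 15.7% of all genes had such a p) and 0 to 1 when muscles were left out. For the other autophagy genes it was 15 of 87 as reported (17.2%, against 18.0% of all genes), 6 with median-ratio scaling (6.90%, against 10.6%), 5 with quantile normalization (5.75%, against 9.61%) and 8 with the replicate block and median-ratio scaling (9.20%, against 15.7%), 19 without mitochondrial genes (21.8%, against 24.2%) and 21 by the Kruskal-Wallis test (24.1%, against 19.2%). With the replicate block alone, in which same-numbered muscles are the legs of a mouse, the counts were 0 of the 10 and 16 of the 87 (18.4%, against 25.2% of all genes).

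Over all genes tested, 3 passed the adjusted p as reported, 57 with the block, 76 with block and median-ratio scaling, 23 with median-ratio scaling, 28 with quantile normalization, 12 without mitochondrial genes, 11 at a mean of 5 TPM, 0 by Kruskal-Wallis (2210 at an unadjusted p under 0.05) and 2 to 39 when muscles were left out (39 without *Uba1* replicate 4). For Kruskal-Wallis the 0 was fixed in advance, since a rank test of 4 against 4 muscles gives no p small enough to pass here. The 4 muscles a group limit the precision to the intervals given for each gene, and TPM give no counting error.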
